A study of Mus musculus with 6 samples.

Results

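Exonic circular RNAs (circRNAs) that join 10 or more exons made up 974 of the 26144 exonic circRNAs, and of the 27999 circRNAs in all, that were listed for mouse ovaries. They came from 663 host genes. The members were chosen by the deposited type (circRNA, as opposed to the intronic ciRNA) and by the deposited exon count, and no level or fold change entered that choice. The ovaries were those of C57BL/6 mice, an inbred laboratory strain, and the groups were adult ovaries at 6 weeks (n = 3) and neonatal ovaries at postnatal day 5 (n = 3). All RNA of both ages was digested with RNase R, an exonuclease that removes linear RNA and spares closed circles, so values refer to the RNA left after it. The labels do not say whether a library came from 1 animal or from pooled ovaries, and p-values therefore measure a spread that may be technical to some degree. The authors' comparison names its groups A and B. No source used here ties either letter to an age, and values per library were left aside for the same reason. Of 19 marker genes of oocytes, granulosa cells and theca or luteal cells, 11 hosted a listed circRNA, among them Zp2, Ddx4, Amh, Cyp19a1, Lhcgr and Cyp11a1. Among the circRNAs analysed here none came from Gdf9, Bmp15, Dazl, Fshr, Foxl2, Inhbb, Cyp17a1 or Hsd3b1, and no marker gene hosted a circle of 10 or more exons.

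A circRNA forms when the spliceosome joins the donor at the end of an exon back to the acceptor at the start of the same or an earlier exon. Such back-splicing competes with linear splicing of the host transcript, and long introns beside the circle, often with inverted repeats that pair with each other, are known to favour it. Circles lack a cap and a poly(A) tail and resist exonucleases, which is why RNase R enriches them. Long circles are less well described than the common ones of a few exons. A read across the back-splice shows the outer ends of a circle only. The exon count of a long circle is therefore the number of exons that its named isoform has between these ends, and exons skipped inside the circle would not have been seen.

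The junction sequences show how long circles of a host differ from each other while they share an end. The 5 long circles of Papola, which encodes a poly(A) polymerase, all began at the acceptor of exon 2 (chromosome 12, position 105799651) and ended at 5 different donors. In each line the last 15 bases of the donor exon stand in lower case and the first 15 bases of the acceptor exon in capitals (GENCODE M21 transcripts, GRCm38, plus strand), so the shared acceptor is the part in capitals.
Papola exons 2 to 11: aggagtttaaacaagTCCAGTTACAACGCA
Papola exons 2 to 12: ctttcagaagtacaaTCCAGTTACAACGCA
Papola exons 2 to 14: agaaagtcctgacagTCCAGTTACAACGCA
Papola exons 2 to 15: ctttcacagacacagTCCAGTTACAACGCA
Papola exons 2 to 16: cagaagaggaagaagTCCAGTTACAACGCA
Itga9, an integrin alpha subunit gene, showed the opposite arrangement. Its 4 long circles all ended at the donor of exon 15 (chromosome 9, position 118698474, plus strand), the part in lower case, and began at 4 different acceptors.
Itga9 exons 2 to 15: gtggcccacgtcaagGGTCCTCGTGGGTGC
Itga9 exons 4 to 15: gtggcccacgtcaagGCCTGTGCCCATCGT
Itga9 exons 5 to 15: gtggcccacgtcaagAGTATAAGAAGAAGT
Itga9 exons 6 to 15: gtggcccacgtcaagGAACTGGTGGTCATG
Itpr1, which encodes an inositol trisphosphate receptor that releases calcium from the endoplasmic reticulum, combined both arrangements. Its 3 circles from exon 14 share the capitals, and those that end at exon 44 share the lower-case part (chromosome 6, plus strand).
Itpr1 exons 14 to 39: ggctatggagagaagGAACTCCTATGTCCG
Itpr1 exons 14 to 44: aacaccaccatccagGAACTCCTATGTCCG
Itpr1 exons 14 to 60: gcagagatgatcaggGAACTCCTATGTCCG
Itpr1 exons 24 to 44: aacaccaccatccagGCAGTAACGTGATGA
Itpr1 exons 27 to 44: aacaccaccatccagTGAGGAGAACACACC

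Long circles were mostly just long enough to be counted as such. The median was 11 exons (quartiles 10 and 13), with 298 circles of exactly 10 exons, 192 of 11 and 144 of 12. There were 172 circles of 15 or more exons and 41 of 20 or more. Circles of exactly 10 exons and those of exactly 9 exons, on either side of the limit, had median exonic lengths of 1244 and 1126 nt, and 74.2% and 75.1% of them had a value in a single library. The limit of 10 exons thus cut through a continuous range.

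The largest circle was circRNA17006 of Itpr1, with 47 of the 62 exons of its isoform (exons 14 to 60, chr6:108376762-108523448, GRCm38, 6850 nt of coding exons). Itpr1 also gave circles of 32, 31 and 26 exons. Abca4, a retinoid transporter gene best known from photoreceptors, had a circle of 33 exons (exons 16 to 48 of 50). Ulk4, which encodes a kinase-like protein, had a circle of 28 exons. Circles of 26 exons came from Dock1, an activator of the small GTPase Rac, and from the phospholipid flippase gene Atp8a1. Circles of 25 exons came from the focal adhesion kinase gene Ptk2, the histone methyltransferase gene Kmt2c and Gbf1, which activates ARF GTPases at the Golgi. The collagen gene Col6a3, Fndc3b and the extracellular matrix gene Frem1 had circles of 24 exons, and Pign (an enzyme of GPI anchor synthesis), Sec16b (a protein of endoplasmic reticulum exit sites) and the Ras inhibitor gene Nf1 circles of 23. Of these 17 circles with 23 or more exons, 2 had values in 2 or more libraries, namely Itpr1 exons 14 to 44 and Dock1 exons 2 to 27. The authors' deposited table lists 12 of the 17 in A alone, 4 in B alone and 1 in both groups.

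Long circles were 1500 nt long at the median once introns were removed (quartiles 1230 and 1843, range 750 to 6850, 957 circles placed on their named isoform), against 456 nt for the 24871 placed circles of 9 or fewer exons. The shortest was a circle of 11 exons of Asph (750 nt), a gene of an aspartate hydroxylase, and the next shortest were circles of Pgap1 (772 nt), Asph again (795 nt), Lmbr1 (802 nt) and Nsmaf (809 nt). After the 47-exon circle of Itpr1 the longest came from Col6a3 (6101 nt), the coagulation factor gene F8 (4901 nt) and Itpr1 again (4521 and 4366 nt). Part of that length follows from the exon count itself. The mean exon length was 126 nt at the median in long circles (quartiles 110 and 145), against 135 nt in shorter ones (quartiles 113 and 166). It varied with the exon count too, with medians of 317 nt at 1 exon and 146 nt at 2. At 9 exons it was 125 nt, at 10 exons 124 nt and at 15 to 19 exons 132 nt. On the genome long circles spanned 31064 nt at the median (quartiles 19938 and 54641), against 6325 nt for shorter circles. Among the widest were those of the transcription factor gene Sox5 (764303 nt), the receptor phosphatase gene Ptprk (354032 nt), the polarity gene Pard3b (334801 nt) and Dennd1a (306854 nt). The narrowest were those of Ppp6r1 (2735 nt), Fzr1 (3324 nt), Hip1r (3335 nt), the dynactin gene Dctn2 (3695 nt) and the histone methyltransferase gene Dot1l (3967 nt). Base composition was close, with a median GC content of 48.8% in long circles and 49.5% in shorter ones. The donor exon ended in AG in 61.3% of long circles and 58.5% of shorter ones, counting the last bases of the exon on the transcript strand only. No test between long and shorter circles was made here, and these values describe the catalogue.

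Introns beside long circles were long for their host isoform. Averaged over both sides, they measured 7737 nt at the median for long circles and 5565 nt for shorter ones. Divided by the median of the isoform's other introns, this gave a median ratio of 3.91 for long circles (quartiles 1.89 and 7.63, 956 circles) and 2.65 for shorter ones (quartiles 1.38 and 5.49, 24785 circles). The median ratio was 3.5 at 9 exons, 3.57 at 10, 4.06 at 11 and 2.93 at 12. It was 4.75 at 13 to 14 exons, 4.08 at 15 to 19 and 4.59 at 20 or more. A mean divided by a median runs high where a few introns are very long. The flanking introns were longer than the median other intron for 90.9% of long circles and 84.6% of shorter ones. The median inner intron of each long circle measured 1808 nt at the median over circles. The upstream flanking intron (6322 nt) was longer than the downstream one (5242 nt) at the median. Without circles that start at exon 2, which lie beside the often long first intron, the ratio of long circles was 2.96, and with the shorter of both flanking introns in place of their mean it was 1.67. Neither of these variants was worked out for shorter circles. An inner intron exceeded both flanking introns in 44.7% of long circles and 26.5% of shorter ones, so many long circles enclosed an intron longer than those at their ends. A circle of more exons has more inner introns that can be the longest, and single-exon circles, which have none, were left out.

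**Figure D1:**
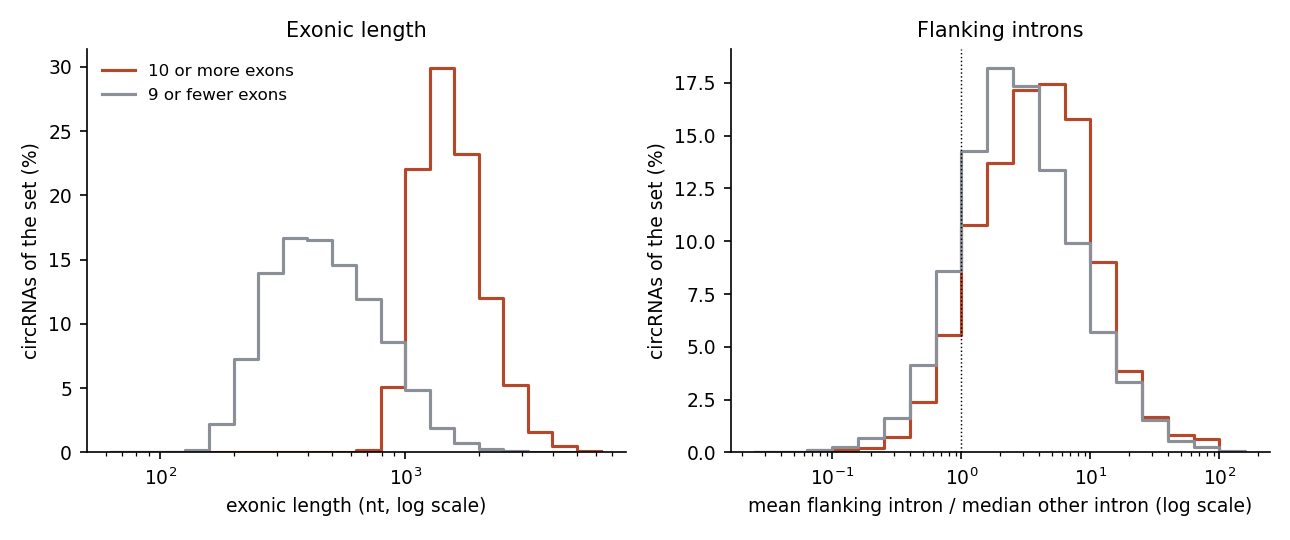
Left, exonic length in nt (log axis) of circles with 10 or more exons (red) and 9 or fewer (grey), as the percent of each set per bin; the medians are 1500 and 456 nt. Right, the mean flanking intron divided by the median other intron of the isoform (log axis, dotted line at 1), where the red curve lies to the right of the grey one, with medians of 3.91 and 2.65, and both overlap widely.

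Exon 2 was where long circles started most often. It was the first exon of 296 of 957 long circles (30.9%), against 23.1% of shorter ones, and exon 3 was the first exon of 10.3% and 12.5%. The share that started at exon 2 was not particular to long circles. It was 36% at 1 exon, 21% at 2, 30.7% at 9, 30.8% at 10 and 17.5% at 20 or more. The penultimate exon was the last one of 12.2% of long circles and 11.7% of shorter ones. Hosts of long circles had isoforms of 25 exons at the median, against 17 for shorter circles, and long circles took up 48% of them at the median (quartiles 36.4 and 64.7), against 20%. Both contrasts follow in part from the choice of circles by exon count. Circles that ran from exon 2 to the penultimate exon and so held every exon with both an acceptor and a donor numbered 49 (5.12% of long circles, against 2.74% of shorter ones), and 14 of them had values in 2 or more libraries. The largest of this kind came from Fndc3b (24 of 26 exons), Nfkb2, an NF-kappa-B subunit gene (21 of 23), and Erc1, which encodes a scaffold protein of vesicle release sites (19 of 21). Exon 1 lay in only 1 long circle, of Pkd1l1, and the last exon in none. As the isoforms are annotated, 788 long circles were wholly coding (82.3%), the start codon lay in 130 (13.6%) and the stop codon in 15 (1.57%). Among shorter circles these shares were 83.4%, 10.4% and 1.54%.

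Long circles mostly shared an end with a shorter circle. The acceptor of 67.1% of long circles, and the donor of 51.8%, was also that of a circle with fewer exons. At least 1 of both ends was shared in 79.6% of long circles, and each of both ends in 39.4%. The share had reached this level at 9 exons (79.5%), while it was 34.5% at 3 exons, and a circle of more exons has more possible partners. A long circle held a median of 4 circles of fewer exons within its span (quartiles 2 and 8), and the 47-exon circle of Itpr1 held 31. No smaller circle lay inside 106 long circles (10.9%). Among long circles themselves, 101 acceptors were used by 2 or more, which took in 235 long circles, and 55 donors, which took in 118. Besides Papola, the acceptors with most long circles were exon 3 of Anapc1, the largest subunit gene of the anaphase-promoting complex (5 long and 5 shorter circles), exon 2 of the flippase-related gene Atp9a (4 and 4), exon 6 of Vwa8 (4 and 2) and exon 2 of Agtpbp1, a tubulin-trimming peptidase gene (4 and 2). Among donors, exon 44 of Itpr1 served 4 long and 4 shorter circles.

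**Figure D2:**
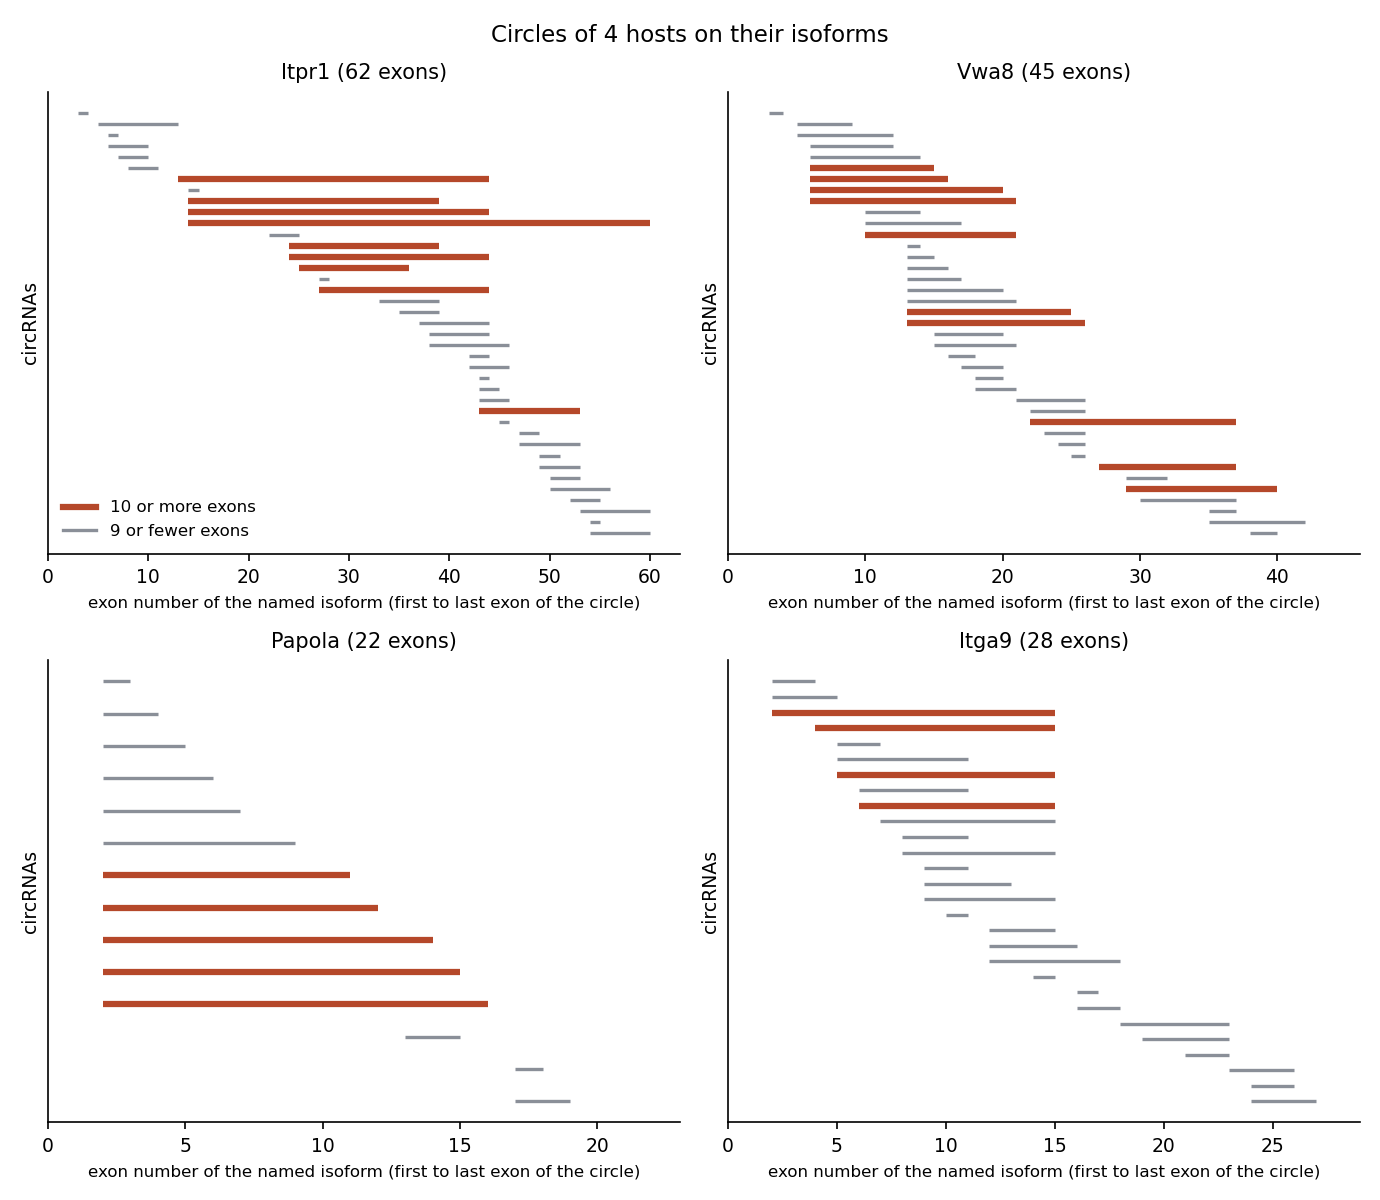
Each horizontal line is a circle, drawn from its first to its last exon on the named isoform (x axis, exon number; circles of other isoforms are left out), in red for 10 or more exons and in grey for 9 or fewer. In Papola the 5 red lines start at exon 2, in Itga9 the 4 red lines end at exon 15, and Itpr1 and Vwa8 have several starts and ends in common.

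Most hosts had a single long circle, and 187 of 663 had 2 or more. Only 41 hosts had no exonic circle of fewer exons. Vwa8, which encodes an ATPase-like protein of mitochondria, led with 10 long circles among its 39 exonic circles, from 6 acceptors and 8 donors. Itpr1 followed with 9 long circles, Dock1 with 8, and Frem1 and the focadhesin gene Focad with 7 each. Ptk2, Ltbp1 (which binds latent TGF-beta in the matrix), the exportin-like gene Ranbp17 and Anapc1 had 6 each, and 7 hosts shared the next place with 5 each. Chromosome 4 held the most long circles (86), and 1 long circle came from a noncoding host.

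Long circles were mostly seen in a single library. An unequal-variance test returns the same p, 0.423, for any circle with a value in only 1 of the 6 libraries. Circles at exactly this value in the authors' deposited table (within 1e-09) were counted as seen in a single library, and all others are called recurrent here. By this measure 784 of 974 long circles (80.5%) were seen in a single library, against 14882 of 25170 shorter ones (59.1%). The share lay at 55.3% to 56.9% for circles of 1, 2 and 3 exons, at 75.1% for 9 exons, 74.2% for 10 and 79.2% for 11, and at 90.2% for 20 or more. The authors' deposited table has 122 long circles in both groups (12.5%, against 31.3% of shorter circles), 600 in A alone (61.6%) and 252 in B alone (25.9%). Of all circRNAs the authors' deposited table has 46.5% in A alone and 24.5% in B alone, and of shorter exonic circles 47% and 21.7%. Circles in a single library, most of those in 1 group alone, lay in A for 68.8% of long and 66.6% of shorter ones. Depth per library is unknown here, and its part in these shares was not tested.

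**Figure D3:**
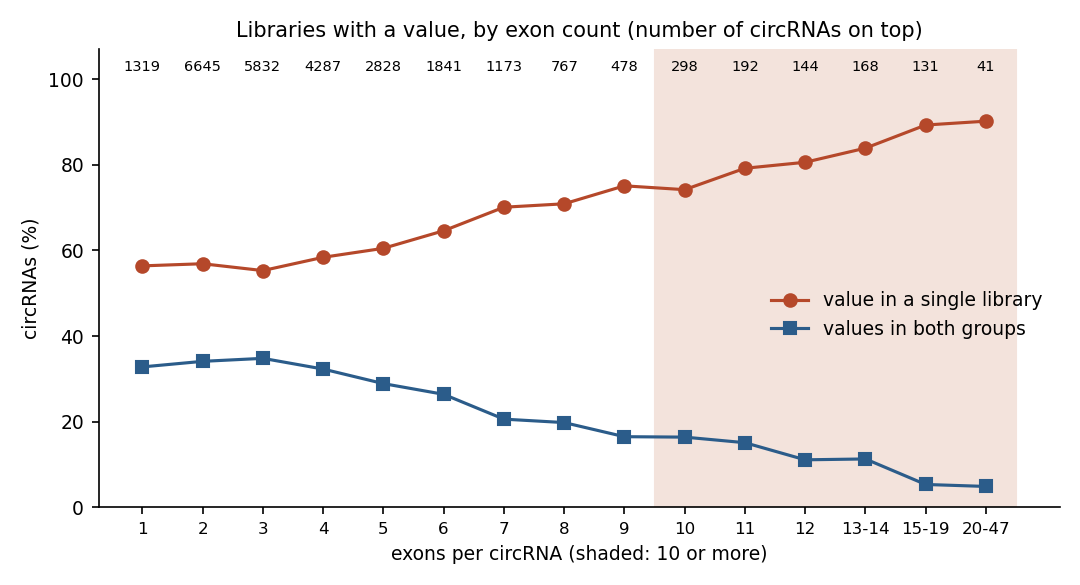
Percent of exonic circRNAs (y axis) with a value in a single library (red circles) and with values in both groups (blue squares), by exons per circRNA (x axis, 10 or more shaded), with the number of circRNAs on top. The red line climbs to 90.2% at 20 or more exons while the blue line drops to 4.88%.

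The authors marked 4 long circles as different between groups, all higher in A. A mark stands for p under 0.05 with a log2 fold change of 1 or more in either direction. The authors' deposited table marks 0.411% of long circles and 1.75% of all circRNAs. Split by direction, the authors' deposited table marks 1.23% of all circRNAs as higher in A and 0.521% as higher in B. Among recurrent circles the authors' deposited table marks 2.11% of the 190 long ones and 4.59% of all. Taken alone, p under 0.05 was met by the same number of long circles, 4, and by 1.95% of all circRNAs in the authors' deposited table. Adjusted for all circRNAs, no long circle was under 0.05 (0% of all circRNAs were), and the authors' deposited table gives 0.522 as the smallest adjusted p of a long circle. The sources used here do not name the test behind these p-values. For values in 2 of 3 libraries of 1 group alone, an unequal-variance test gives no p below 0.184. Recurrent long circles of 1 group alone numbered 68, with 61 in A and 7 in B, and the authors' deposited table has 4 of these under that p (5.88%). Over all circRNAs such recurrent circles of 1 group alone numbered 2537, with 2001 in A and 536 in B, and 261 of them were under that p in the authors' deposited table (10.3%). In whole ovaries, fewer cells of a type and less RNA per cell cannot be told apart, and this applies to every fold change given here.

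The marked circle with the smallest p belonged to Dennd1b, an activator of Rab GTPases in vesicle traffic. The junctions of the marked circles, with the donor exon in lower case and the acceptor exon in capitals, identify them (GRCm38, with Pdpk1 on the minus strand and the others on the plus strand).
Dennd1b exons 10 to 19: cacaagctttcccagTTAACTGCCTGTCTC
Lrba exons 23 to 36: catgcagaatttgagGTTACTTTTGAAATA
Vwa8 exons 6 to 16: acccaggatcccacaGATCACACTAAAGAG
Pdpk1 exons 2 to 11: cggtggaaacccttgTATGACGCTGTGCCC
The authors' deposited table lists Dennd1b circRNA3155 (chr1:139081173-139144000, 10 exons, 843 nt, flanking introns of 18201 and 23670 nt) in A alone (p = 0.00208). From the same acceptor came a circle of exons 10 to 14, which the authors' deposited table puts at a log2 fold change of 0.80 without a mark (p = 0.0791). Neither of the other long Dennd1b circles was marked, and the authors' deposited table has exons 4 to 14 at 1.06 (p = 0.672) and exons 4 to 19 in B alone (p = 0.423). The authors' deposited table puts all 12 recurrent shorter circles of Dennd1b toward A, at log2 fold changes of 0.61 to 1.87 for the 10 with values in both groups, and marks none.

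Lrba encodes a BEACH-domain protein of vesicle traffic. Its circRNA2597 (chr3:86348119-86417996, 14 exons, 2994 nt, flanking introns of 19762 and 27310 nt) is listed in A alone by the authors' deposited table (p = 0.00707). The authors' deposited table has the circle of exons 23 to 37, from the same acceptor, in A alone too (p = 0.184). The authors' deposited table also marks a shorter Lrba circle of exons 41 to 44, which does not overlap them and had values in A alone (p = 0.00824). All 11 recurrent shorter circles of Lrba lay toward A in the authors' deposited table. Of these, 7 had values in both groups and the others in A alone.

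Vwa8 circRNA1338 (chr14:78933666-78995163, 11 exons, 1296 nt) is the marked circle of the host with most long circles, listed in A alone by the authors' deposited table (p = 0.0184). The other long circles from its acceptor were not marked. The authors' deposited table has exons 6 to 21 in both groups at 0.07 (p = 0.973), and exons 6 to 15 and 6 to 20 in a single library of A (p = 0.423 each). Over all 10 long Vwa8 circles the authors' deposited table lists 5 in A alone, 4 in B alone and 1 in both groups. All 4 in B alone were seen in a single library (p = 0.423 each in the authors' deposited table), and both recurrent ones lay toward A. The 16 recurrent shorter circles of Vwa8 were split in the authors' deposited table, with 12 toward A and 4 toward B and no mark.

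Pdpk1, whose kinase product phosphorylates AKT and related kinases, had the only marked long circle with values in both groups. The authors' deposited table gives circRNA826 (chr17:24088004-24111117, 10 exons, 1328 nt, upstream intron of 30319 nt) a log2 fold change of 2.39, which is 5.25-fold toward A (p = 0.032, adjusted p = 0.522). Other Pdpk1 circles from the same exon 2 acceptor stand at 2.45 (exon 2 alone, p = 0.241) and 0.57 (exons 2 to 10, p = 0.803) in the authors' deposited table. All 4 recurrent shorter circles of Pdpk1 lay toward A in the authors' deposited table, and none was marked. Of these 4, 3 had values in both groups. Next by p among long circles, without a mark in the authors' deposited table, were those of Med12l, a relative of a Mediator subunit (in A alone, p = 0.0542), the ATPase-domain gene Atad2b (1.97, p = 0.0818) and the Polycomb-related gene L3mbtl3 (1.40, p = 0.0986). These 3, and the circles toward B named further on, were picked after their values were seen.

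Of the 190 recurrent long circles, from 157 hosts, the authors' deposited table puts 149 toward A (78.4%) and 41 toward B. Toward A the authors' deposited table also puts 70.1% of all recurrent circRNAs and 70.7% of recurrent exonic circles with 9 or fewer exons. By exon count this share was 66% at 2 exons, 69% at 3, 76% at 5, 75.2% at 7 and 73.1% at 9. At 10 exons it was 79.2% and at 11 exons 75%, so circles of 5 to 9 exons came near the long ones. Of the 122 long circles with values in both groups, 88 lay toward A (72.1%) and 34 toward B in the authors' deposited table, at a median log2 fold change of 0.44. For all circRNAs with values in both groups the authors' deposited table gives 67.3% and 0.42. Circles of a host share its RNA, and the difference between long circles and the whole table was not tested. Their log2 fold changes spread over -2.66 to 2.59 in the authors' deposited table, and 31.1% were 1 or more in absolute value, against 36.7% of shorter circles. The highest was that of Myo9a, an unconventional myosin gene (exons 7 to 16, 2.59, p = 0.236), and the lowest that of Acly, the ATP citrate lyase gene of lipid synthesis (exons 7 to 17, -2.66, p = 0.308), in the authors' deposited table.

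No long circle toward B was marked, and the authors' deposited table gives 0.185 as the smallest p on that side. It belonged to Atp9a (exons 2 to 13) and equally to Dync1i1, a dynein subunit gene (exons 7 to 16), both in B alone in the authors' deposited table. The authors' deposited table lists further circles in B alone for Vps13d, a lipid transfer protein gene (exons 45 to 65, p = 0.186), Itpr1 (exons 43 to 53, p = 0.188) and Elmo1, a partner of Dock proteins (exons 2 to 13, p = 0.19). The potassium channel gene Kcnt2 stood at -2.30 (p = 0.249) and Heph, a copper-dependent iron oxidase gene, at -2.24 (p = 0.252) in the authors' deposited table. Ltbp1 had 3 recurrent long circles, all toward B, which the authors' deposited table gives as -1.99 (exons 11 to 24, p = 0.536), -0.91 (exons 14 to 24, p = 0.691) and B alone (exons 11 to 22, p = 0.245). Of the 12 recurrent shorter Ltbp1 circles, 2 lay toward A and 10 toward B in the authors' deposited table, and none was marked.

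**Figure D4:**
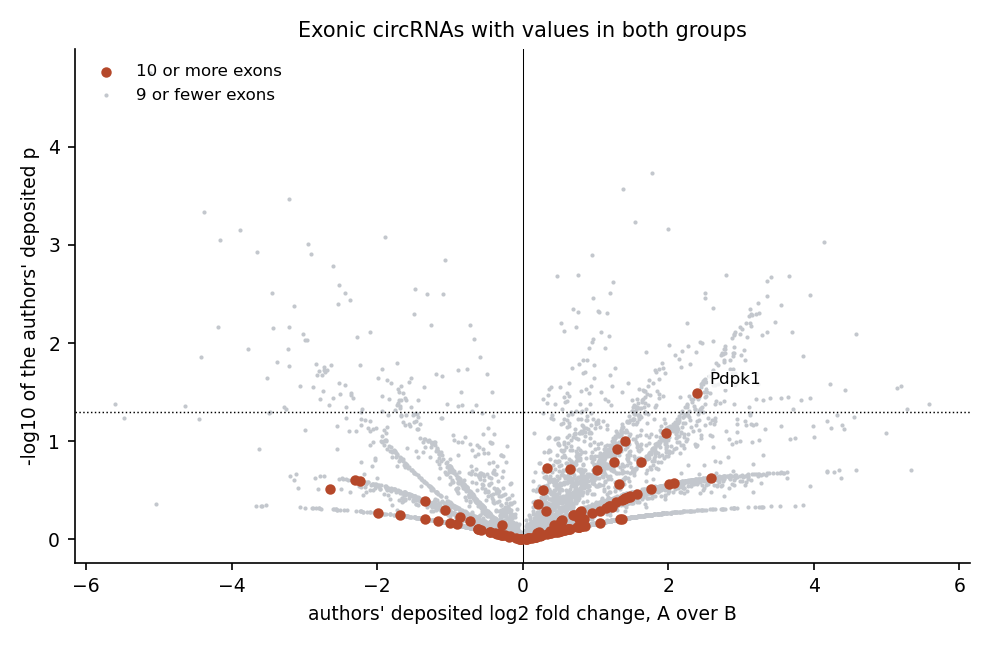
The authors' deposited log2 fold change of A over B (x axis) and the -log10 of the authors' deposited p (y axis) for the 122 circles of 10 or more exons (red) and the circles of 9 or fewer exons (grey) that had values in both groups. The dotted line marks the authors' limit of 0.05, and Pdpk1 is the only red point above it.

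The hosts with most long circles, with Papola, are set side by side here, and differences between hosts were not tested. Papola had 4 recurrent long circles of 5, the most of any host, all 4 toward A. The authors' deposited table has exons 2 to 14 at 0.19 (p = 0.867), exons 2 to 15 at 0.34 (p = 0.879), and exons 2 to 11 and 2 to 16 in A alone (p = 0.184 each). Anapc1 had 3 recurrent long circles, which the authors' deposited table puts at 0.28 (exons 3 to 14, p = 0.31), 0.08 (exons 3 to 20, p = 0.972) and in A alone (exons 3 to 15, p = 0.185). All 7 long circles of Frem1, and 5 of 7 of Focad, were seen in a single library of A. The authors' deposited table puts all their recurrent shorter circles (9 for Frem1 and 14 for Focad) toward A. Only 2 of these 9, and 9 of these 14, had values in both groups. The rest were recurrent through A alone, which fixes their direction. For Itpr1 the authors' deposited table has 5 long circles in A alone and 4 in B alone, with none in both groups. Of the recurrent ones, exons 14 to 44 (p = 0.214) and 24 to 39 (p = 0.218) are in A alone in the authors' deposited table, and exons 43 to 53 in B alone. For Dock1 the authors' deposited table has 2 long circles in A alone, 4 in B alone and 2 in both groups, at 2.01 (exons 12 to 22, p = 0.273) and 0.50 (exons 2 to 27, p = 0.824). The 6 Dock1 circles in 1 group alone were each seen in a single library. The Ranbp17 circle of exons 2 to 12 stood at 1.18 (p = 0.456) in the authors' deposited table, and its other 5 long circles were seen in a single library each. Ptk2 had 5 long circles in a single library of A and 1 at 0.65 (p = 0.777) in the authors' deposited table.

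Long circles were also grouped by 14 lists of host genes with many exons, and 1 circle on these lists, that of Lrba, was marked. The authors' deposited table marks 0.411% of all long circles and 1.75% of all circRNAs. Beside the list counts in A alone or B alone stand 46.5% and 24.5% of all circRNAs in that table. The lists hold long circles only, and the shares of all long circles, given above, were higher, mostly so in A alone. The lists are not complete, and counts refer to the listed genes alone. The calcium release channels of the Itpr and Ryr families gave 15 long circles from 3 of 6 listed genes, and the authors' deposited table has 9 of them in A alone and 6 in B alone. Itpr2 added circles of up to 14 exons, and Ryr3 a circle of 10 exons, all in a single library. The listed motors (dyneins, kinesins and myosins) gave 18 long circles from 11 hosts, and the authors' deposited table puts all 5 recurrent ones toward A. Only 1 of these 5 had values in both groups. The dynein subunit gene Dync1i1 is not on the list, and the authors' deposited table has both of its long circles in B alone, 1 of them recurrent (p = 0.185). In A alone the authors' deposited table lists, among others, Kif16b, an endosome kinesin gene (p = 0.184), Myo9a (exons 27 to 39, p = 0.185) and Myo1d (p = 0.202). The largest motor circles, of Myo5b (20 exons) and Kif13b (19 exons), were seen in a single library each. Large proteins of lipid transfer and vesicle traffic gave 19 long circles from 8 hosts, and of the 5 recurrent ones the authors' deposited table puts 3 toward A and 2 toward B. Besides those of Lrba and the 21-exon circle of Vps13d, these were Vps13d exons 53 to 63 in A alone (p = 0.184) and the autophagy-related gene Wdfy3 at -0.35 (p = 0.873) in the authors' deposited table. Nbea, a neuronal relative of Lrba, had a circle of 16 exons in a single library. DOCK exchange factors gave 12 long circles from 5 of 11 genes, and besides both recurrent circles of Dock1 the authors' deposited table has Dock3, known from neurons, in A alone (p = 0.184). The largest of this list after the 26-exon circle of Dock1 was its circle of exons 2 to 23 (22 exons), seen in a single library of B.

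Extracellular matrix hosts gave the most long circles of any list, 35 from 13 of 44 genes. The authors' deposited table places 22 of them in A alone, 11 in B alone and 2 in both groups. The 3 recurrent ones were the Ltbp1 circles described above. The largest, the 24-exon circles of Frem1 and Col6a3, lay in a single library, as did those of the laminin gene Lama1 (22 exons), the basement membrane collagen genes Col4a5 (19 exons), Col4a3 (17 exons) and Col4a4 (13 exons), the fibrillar collagen gene Col3a1 (18 exons) and Reln (15 exons). Adhesion and LDL receptor family hosts gave 12 long circles, 5 of them recurrent. The authors' deposited table has Itga9 at -1.35 (exons 5 to 15, p = 0.403) and 0.49 (exons 6 to 15, p = 0.759), the receptor phosphatase gene Ptprd at -0.18 (p = 0.933), and Lphn3 (p = 0.188) and the integrin gene Itga8 (p = 0.245) in A alone. The largest on this list were circles of Lrp1b (19 exons) and Lphn3 (16 exons), each in a single library. Spectrin-repeat and actin cross-linking proteins gave 8 long circles, all in a single library. They came from Flnc (22 exons), Dst (19 exons), Utrn (19 and 13 exons), Sptbn1 (18 and 13 exons) and Syne2, whose isoform of 116 exons gave circles of 16 and 14 exons.

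Hosts of DNA replication, repair and cohesin gave 11 long circles, and the authors' deposited table has Rev1, a translesion polymerase gene, at 1.30 (16 exons, p = 0.12) and the helicase gene Brip1 in A alone (p = 0.19). The Fanconi anaemia gene Fancd2 had circles of 21, 11 and 10 exons, which all began at exon 9 and were each seen in a single library of A. The listed chromatin regulators gave 15 long circles, and the authors' deposited table has 12 in A alone, 2 in B alone and 1, of the histone methyltransferase gene Ehmt1, at 1.47 (p = 0.363). The chromatin remodeller gene Smarcad1 had the other recurrent one, in A alone in the authors' deposited table (p = 0.199). Not on the list were Dot1l, Srcap and Smarca1, with 1, 1 and 2 long circles in a single library of B each, and the histone demethylase gene Kdm2a, which the authors' deposited table has at 0.52 (p = 0.649) and in A alone (p = 0.184). Ubiquitin ligases gave 12 long circles, with Wwp1 at 1.41 (p = 0.382) and Ubr2 at 0.22 (p = 0.847) in the authors' deposited table, and the largest were of Herc3 (20 exons) and Herc2 (17 exons). Importins, exportins and nucleoporins gave 11, with the nuclear pore gene Nup98 at 0.17 (p = 0.937) in the authors' deposited table and Nup205 the largest (20 and 18 exons). Kinases of the PIKK family and their partners gave 5, with Trrap, a subunit of histone acetyltransferase complexes, at -0.27 (p = 0.902) in the authors' deposited table and circles of 14 exons of Trrap and Prkdc, a DNA repair kinase gene, in a single library each. Centrosome and cilium hosts gave 8 long circles, led by Cspp1 (16 exons) and Ift140 (13 exons), and the listed ABC transporters, which do not include Abca4, gave 5, led by Abcc9 (17 exons) and Abcc1 (14 exons). All of these 13 circles were seen in a single library. Each list holds 5 or fewer recurrent circles, too few to set beside the 70.1% toward A of the whole table.

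**Figure D5:**
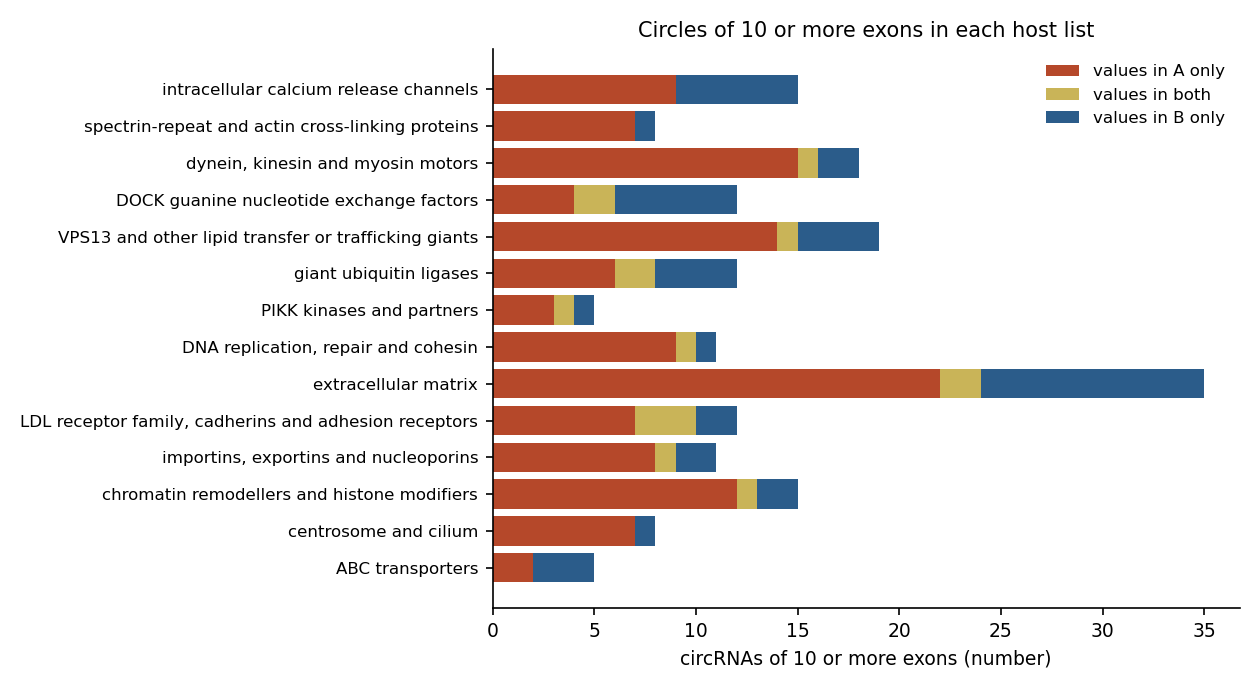
Number of circles of 10 or more exons (x axis) in each of the 14 host lists, split into those with values in A only (red), in both groups (yellow) and in B only (blue) in the authors' deposited table. Extracellular matrix has the longest bar, with 22, 2 and 11 circles, and circles with values in both groups are few in every list.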

How the data were processed

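The deposited data are a pair of tables on 1 set of circRNAs (2 tables, with 1 line of either not among the files analysed). Per the file headers, they hold exon count, type, host, isoform and coordinates, and the authors' comparison of A with B as a log2 fold change of mean FPKM (A over B), a p-value and an adjusted p-value. Bowtie 0.12.2 and GRCm38 are named, without their roles, in the submitters' processing notes. The circRNA caller and its filters are stated in none of the sources used here. Another 24 columns of library values and 2 of group means match no sample label and were set aside, so depth is unknown and no test of this report's own was run.

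Circles were placed on their named isoform in GENCODE M21 (GRCm38) by both ends, with Python 3.11.15, pandas 2.3.3 and SciPy 1.17.1. Of 974 long circles 957 were placed, each with the deposited exon count. Simulated circles were cut from the same isoforms at exact exon ends. Their recovery (2000 of 2000) checks the code only and says nothing on the accuracy of the deposited ends. Junctions were read from the GENCODE transcripts. The members and host lists were chosen with earlier results of these data known.

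The rule for names took the 15 circles with most exons (17 with ties), the 10 hosts with most long circles (9 are named, since 7 tie for the next place), every marked circle, the 5 longest and 5 shortest by span and by exonic length, and per list the 2 circles with the smallest p and the 2 with most exons, where ties are named in part. Some items that the rule takes are not reported here. Limits of 8 or 15 exons, other p and fold limits, and 1 circle per host were tried as alternatives.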

Additional observations from a re-analysis of the deposited data

How the results depend on the processing

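The summary values were recomputed under 28 other settings, of which 15 stayed within the 95% interval of the value given. These intervals treat circles as independent, although circles of a host share its RNA. Some settings changed nothing: an exon count equal to the annotated one kept all 957 placed circles, and any fold change kept 0.411% marked. With 1 circle per host 0.151% were marked, still within the interval. The count of 15 is therefore no measure of robustness. In the authors' deposited table, 1.17% of circles with 8 or more exons were marked and their flanking intron ratio was 3.43. With 15 or more exons, 0% were marked, 94.4% of 18 circles were higher in A, 27.6% started at exon 2 and the mean exon length was 132 nt. Among circles with values in 2 or more libraries 2.11% were marked, and over all long circles 70.6% were higher in A. The flanking ratio was 1.67 with the shorter intron and 2.96 without circles from exon 2. The median of exon sizes gave 120 nt. With 1 circle per host 75% shared a splice site with a shorter circle, and 39.4% of all long circles shared both. No paired analysis was possible because the columns of values per library match no sample label, and leaving out each replicate was not run for the same reason. Most long circles were seen in a single library, where the deposited p takes 1 fixed value, so no group difference was detectable for them.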

Other observations

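Reading frames were followed around the 788 long circles that hold coding sequence only. The exonic length was a multiple of 3 in 319 of them (40.5%), against 39.4% of shorter coding circles. In these 319 the annotated frame ran all the way round with no stop codon, over a median of 1464 nt (quartiles 1238 and 1803) and up to 4521 nt, in the 32-exon circle of Itpr1. These open frames followed largely from the choice of circles, since only the codon across the junction could have held a stop. The other 469 were read in all 3 frames, which makes a stop likely, and each met a stop codon. The same was so for 12572 shorter circles whose length was no multiple of 3, except for 4. The 33-exon circle of Abca4 (4344 nt) was open all round. No measure of translation was used here.

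Of the 974 long circles, 17 could not be placed on their named isoform, among them the 22-exon circle of Flnc, circles of Fer and a Ptk2 circle. Their lengths and introns are therefore not part of the values given.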
